A study of Mus musculus with 6 samples.

Results

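The regions described here carried a peak of HA-tagged, kinase-inactive CDK6-K43M in both libraries of that variant and no peak of HA-tagged CDK6-WT in either library. They were chosen by the peak calls alone, after peaks of the 4 anti-HA lists that share at least 1 bp had been merged. Of 56716 merged regions on chromosomes 1 to 19 and X, 714 met this rule, which is 1.26% of all regions. The Y chromosome and unplaced scaffolds raised the number of regions to 56748 and added 0 members.

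All 4 libraries came from mouse pre/pro-B cell lines that were transformed with BCR-ABL(p185) and lacked endogenous CDK6 (Cdk6-/-). The lines were transduced to overexpress either HA-CDK6-WT or HA-CDK6-K43M, with 2 libraries per variant, so the chromatin seen is that of cells with an added, tagged protein and not with CDK6 at its own level. Chromatin was fixed with DSG and formaldehyde and precipitated with an anti-HA antibody, and the 2 input libraries of the series were not analysed here. The labels do not say whether replicates are separate lines, clones or cultures. The promoters of the B-lineage genes Cd79a, Cd79b, Ebf1, Pax5, Vpreb1 and Igll1 held a peak in all 4 lists. The promoter of Rag1, part of the recombinase of antigen receptor genes, held a peak only in the replicate 2 lists.

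CDK6 is a cyclin-dependent kinase of the G1 phase that, with a D-type cyclin, phosphorylates the retinoblastoma protein. The K43M exchange removes a lysine that the kinase needs to use ATP, so the protein is present but cannot phosphorylate its substrates. CDK6 has no DNA-binding domain that reads a sequence of its own, and it is known to reach chromatin through transcription factors and other partners, so a ChIP-seq peak of it stands for a place where it was crosslinked to DNA, directly or through other proteins.

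Sequences around the summits of 8 of these regions are given to show the kinds of DNA that they hold. They are a selection, made with the values known, from the 10 highest-ranked members and the 10 highest-ranked promoter members, and none of the windows shown touches an annotated exon or UTR. Each runs 5′ to 3′ on the plus strand of GRCm38 (mm10) for 201 bases with the summit in the centre, and capitals mark a match to one of the 13 motif families described further on. The window in an intron of Zfp664 (chr5:124890833-124891033) belongs to the member with the highest mean rank and holds a PU.1-type ETS motif. The window in an intron of Spred2 (chr11:19977864-19978064) holds none of the motifs, and neither does the intergenic window (chr15:42100839-42101039) for which Abra has the nearest protein-coding start. The window in the first kilobase of Acadm (chr3:153943813-153944013) holds a RUNX and an IRF motif. The window upstream of Iqgap2 (chr13:95892049-95892249) is CpG-rich, with 16 CpG dinucleotides, and holds an E-box and a RUNX motif. The windows in the promoters of Mon1b (chr8:113634844-113635044), Rd3l (chr12:111981917-111982117) and Cdc42bpg (chr19:6304946-6305146) have 6, 4 and 2 CpG dinucleotides.
Zfp664: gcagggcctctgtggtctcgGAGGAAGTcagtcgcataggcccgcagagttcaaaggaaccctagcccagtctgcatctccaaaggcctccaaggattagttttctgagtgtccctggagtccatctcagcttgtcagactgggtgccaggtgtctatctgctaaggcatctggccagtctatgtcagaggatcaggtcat
Spred2: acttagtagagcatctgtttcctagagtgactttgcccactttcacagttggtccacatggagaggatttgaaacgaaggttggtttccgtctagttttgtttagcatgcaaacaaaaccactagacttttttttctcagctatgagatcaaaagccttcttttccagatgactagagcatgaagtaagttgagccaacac
Abra: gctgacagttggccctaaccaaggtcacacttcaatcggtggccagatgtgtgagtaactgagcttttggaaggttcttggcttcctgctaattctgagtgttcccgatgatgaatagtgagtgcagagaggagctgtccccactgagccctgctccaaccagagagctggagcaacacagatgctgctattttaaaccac
Acadm: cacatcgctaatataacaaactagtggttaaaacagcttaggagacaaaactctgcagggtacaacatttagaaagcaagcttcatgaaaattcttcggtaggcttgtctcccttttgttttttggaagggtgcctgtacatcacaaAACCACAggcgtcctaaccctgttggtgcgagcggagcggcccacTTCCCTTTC
Iqgap2: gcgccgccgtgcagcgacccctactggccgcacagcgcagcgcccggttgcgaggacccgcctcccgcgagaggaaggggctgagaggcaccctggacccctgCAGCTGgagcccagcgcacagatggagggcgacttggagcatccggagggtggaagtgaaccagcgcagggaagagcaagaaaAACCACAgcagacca
Mon1b: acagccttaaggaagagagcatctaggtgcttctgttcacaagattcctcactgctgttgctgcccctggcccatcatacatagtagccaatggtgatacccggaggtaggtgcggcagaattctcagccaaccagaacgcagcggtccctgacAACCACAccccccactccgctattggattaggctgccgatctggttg
Rd3l: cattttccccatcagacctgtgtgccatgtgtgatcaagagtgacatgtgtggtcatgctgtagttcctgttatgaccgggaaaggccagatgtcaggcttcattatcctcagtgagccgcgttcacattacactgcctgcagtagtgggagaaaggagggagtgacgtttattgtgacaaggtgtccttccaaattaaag
Cdc42bpg: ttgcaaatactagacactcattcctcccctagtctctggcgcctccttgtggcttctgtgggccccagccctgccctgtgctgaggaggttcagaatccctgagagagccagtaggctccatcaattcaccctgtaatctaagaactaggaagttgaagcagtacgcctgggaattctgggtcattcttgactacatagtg

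The first question was how strong these peaks were, and how near the rule's edge. Peak strength is given as the within-list percentile of the −log10 q-value, where 100 is the strongest peak of that list. Since the rule used the peak calls, these values are a description and were not tested. The members' median percentile was 24.0 in CDK6-K43M replicate 1, with quartiles at 12.5 and 37.1, and 26.4 in replicate 2, with quartiles at 12.3 and 44.9. Regions bound by both variants, defined as a peak in at least 3 of the 4 lists, had medians of 68.5 and 64.0. Members were thus mostly weak peaks in both lists, with 536 under the 50th percentile in both and 17 at or above it in both. None of the 714 reached the 75th percentile in both lists. Percentiles in the 2 lists were only weakly related over the members (Spearman's rho = 0.12, Pearson's r = 0.15, n = 714 regions that share their libraries), compared with a rho of 0.16 over 20131 regions bound by both.

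**Figure D1:**
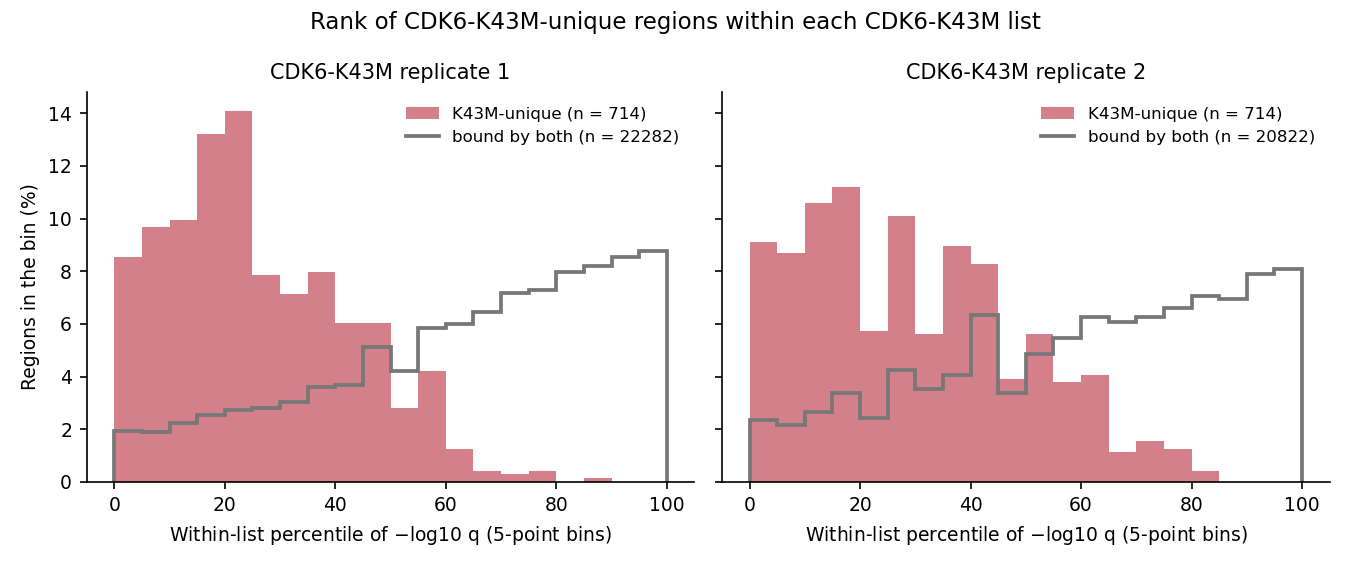
Distribution of the within-list percentile of −log10 q (x axis, 5-point bins) as the share of regions in each bin (y axis, %), for the 714 CDK6-K43M-unique regions (filled) and the regions bound by both (line) in each CDK6-K43M list. The unique regions lie mostly under the 50th percentile in both lists, with medians of 24.0 and 26.4.

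In reads, the members rested on small numbers. The summit of a member held a median of 17 reads in CDK6-K43M replicate 1, from 10 to 56, and a median of 12 in replicate 2, from 8 to 25. The summits of regions bound by both held medians of 30 and 18 reads. The median fold enrichment over local background was 4.83 and 4.60 for members against 8.05 and 6.23 for regions bound by both. At each member's own background, a median of 9 reads would have been enough for a listed peak in either CDK6-WT library, with a range of 8 to 17 in replicate 1 and 8 to 18 in replicate 2. This number assumes that the background of the CDK6-WT library equals that of the same-numbered CDK6-K43M library, and at shared summits the ratio of those backgrounds had a median of 1.03 in replicate 1 and 0.985 in replicate 2, with 5th and 95th percentiles of 0.685 and 1.5, and 0.661 and 1.49. After scaling for depth, members had a median of 1.62 times the reads needed in replicate 1 and 1.56 times in replicate 2. In 285 of 714 members the reads were at least 1.5 times those needed in both replicate numbers, and in 23 at least 2 times. A ratio of at least 1 in both, held by 710 members, was largely set by the rule. The lowest −log10 p of a listed peak was 3.52 and 3.54 in CDK6-K43M and 3.62 and 3.56 in CDK6-WT. The same ratios for other regions are not given here, so these counts cannot be read as high or low. The reads of the CDK6-WT libraries at the members are not in the peak lists. A member thus says that CDK6-WT was not called there and not that it was absent.

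**Figure D2:**
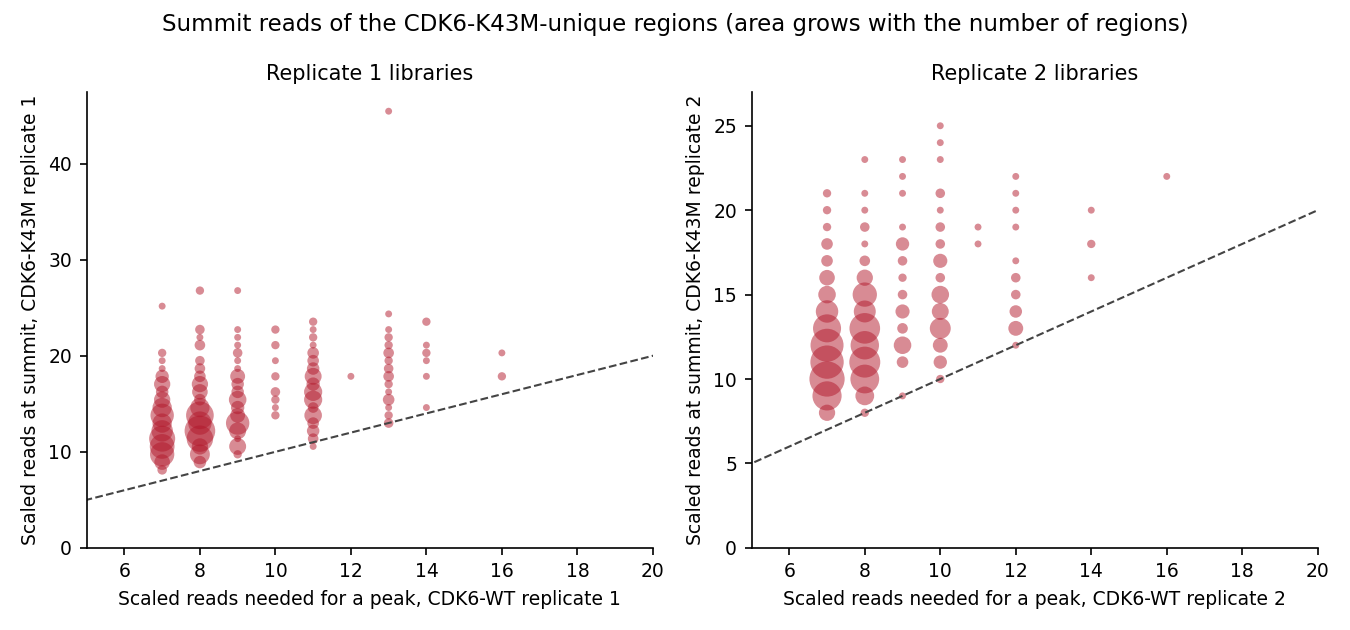
Depth-scaled reads at the summit of each CDK6-K43M-unique region (y axis) against the scaled reads that a listed peak would need in the same-numbered CDK6-WT library at that background (x axis), for replicates 1 and 2, with equality as a dashed line and larger points for more regions. The points lie mostly above the line, which the peak calls of the rule largely set, with median ratios of 1.62 and 1.56.

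Just outside the rule lie regions that both CDK6-K43M libraries and exactly 1 CDK6-WT library called. Of the 20845 regions called in both CDK6-K43M libraries, 78.6% had a peak in all 4, 2096 (10.1%) added only CDK6-WT replicate 1, 1659 (7.96%) added only CDK6-WT replicate 2, and 3.43% were members. The CDK6-WT peak that kept a region out of the set had a median −log10 q of 9.29 in replicate 1 and 7.31 in replicate 2. In 11 and 23 of these regions it was below 2, and the lowest were 1.34 and 1.31. Just inside the rule, the weakest member lay in the promoter of Fermt3, which encodes the integrin activator kindlin-3, with a −log10 q of 1.42 and 1.86. Its summit held 18 and 11 reads.

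The lists also grouped by replicate number. Regions in both replicate 1 lists and in no other numbered 7350 and those in both replicate 2 lists and in no other 6259, whereas 474 were in CDK6-K43M replicate 1 and CDK6-WT replicate 2 only and 274 in CDK6-K43M replicate 2 and CDK6-WT replicate 1 only. The replicate 1 lists held more promoter regions, 42.1% for CDK6-K43M and 44.9% for CDK6-WT, than the replicate 2 lists, 35.8% and 37.9%. The share of CpG-rich regions was likewise 26.5% and 29.6% against 21.5% and 23.6%. The labels do not say what a replicate number marks. Within a replicate number, 9324 regions in the replicate 1 lists and 8905 in the replicate 2 lists had a CDK6-K43M peak without a CDK6-WT peak, and the 714 members were 7.66% and 8.02% of these.

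Location was not used by the rule. Promoters, defined as windows that begin 2000 bp ahead of a transcript start of any kind and end 200 bp past it, held 180 members (25.2%, 95% Wilson interval 22.2 to 28.5). A further 60 members (8.40%) overlapped an exon, 290 (40.6%) lay in introns and 184 (25.8%) were intergenic. Regions bound by both were at promoters in 47.9%, so that members were lower by 22.6 percentage points (95% Newcombe interval of the difference, members minus bound by both, −25.8 to −19.3). Of all merged regions, 34.3% were at promoters, 33.5% in introns and 25.3% intergenic, so the members' intergenic share was near that of all regions. Against regions bound by both, members were in introns more often, by 15.2 points (11.6 to 18.9), and in intergenic DNA more often, by 5.23 points (2.11 to 8.60). These intervals cover counting error over regions only, since regions of 1 library are not replicates, and 2 against 2 libraries cannot give an exact permutation p under 0.333. The nearest protein-coding start lay at a median of 10333 bp from the summit of a member against 4035 bp for regions bound by both. Within 500 bp of such a start lay 11.6% of members and 34.8% of regions bound by both, but 17.2% of members and 9.69% of regions bound by both lay between 500 and 2000 bp. Over all merged regions these shares were 20.7% and 12.3%.

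CpG-rich summits were defined by a GC content of at least 50% and a CpG observed-to-expected ratio of at least 0.6 in 301 bases. They were also less common in members than in regions bound by both. They made up 12.7% of members (91 of 714) and 33.5% of regions bound by both, a difference of −20.7 points (−23.0 to −18). The share was lower than in regions bound by both within promoters as well. There, 33.3% of 180 member promoters were CpG-rich against 64.8%, a difference of −31.4 points (−38.0 to −24.2), and 49.0% over all merged regions at promoters. The summit lay in a repeat, as soft-masked in the genome, in 76 members (10.6%), near the 9.99% of all merged regions. It did so in 7.05% of regions bound by both, a difference of 3.59 points (1.51 to 6.09). Against regions with both CDK6-K43M peaks and a peak of 1 CDK6-WT list the repeat difference was 1.78 points (−0.489 to 4.4), which did not exclude 0. Of these 76, 13 were at promoters and 58 in introns or intergenic DNA.

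The comparison with regions bound by both depended on which CDK6-WT library was used. The location of members differed by less than counting error from that of regions with both CDK6-K43M peaks and a peak of CDK6-WT replicate 2 only, of which 23.1% were at promoters (difference 2.12 points, −1.57 to 5.97) and 27.9% intergenic (difference −2.14 points, −5.92 to 1.8). They were CpG-rich more often than these, 12.7% against 7.29% (difference 5.45 points, 2.83 to 8.34). Regions with both CDK6-K43M peaks and a peak of CDK6-WT replicate 1 only were at promoters in 48.0% and CpG-rich in 33.6%, and members were lower by 22.8 points (−26.6 to −18.9) and 20.8 points (−23.9 to −17.5). Without CDK6-WT replicate 1, the set unique to CDK6-K43M grew to 2866 regions and the promoter difference turned to 2.03 points (0.146 to 3.94), while the CpG-rich difference turned to 2.86 points (1.15 to 4.63). The intergenic difference was then 0.815 points (−0.779 to 2.47) and the repeat difference 0.785 points (−0.221 to 1.89). Within each replicate number the direction was that of the whole set, but over wider sets. The members were 7.66% and 8.02% of the regions with a CDK6-K43M peak and no CDK6-WT peak of that number. Regions of CDK6-K43M replicate 1 without a peak of CDK6-WT replicate 1 were at promoters less often than those with, by −21.1 points (−22.2 to −20.0), and in replicate 2 the difference was −13.6 points (−14.7 to −12.5). For CpG-rich summits these differences were −23.2 points (−24.0 to −22.4) and −13.5 points (−14.4 to −12.7).

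The comparison was repeated among weak peaks. When members and regions bound by both were limited to a mean percentile under 50, the promoter difference was −15.7 points (−19.1 to −12), the CpG-rich difference −12 points (−14.6 to −9.06), and the intergenic difference 1.83 points (−1.54 to 5.46), which no longer excluded 0. The 204 regions unique to CDK6-WT by the mirrored rule were at promoters in 27.9%, and the difference from the members was −2.73 points (−9.93 to 3.87). Of the 204, 13.2% lay within 500 bp of a protein-coding start and 18.6% between 500 and 2000 bp, near the members' shares. Regions called in CDK6-K43M replicate 1 alone were at promoters in 27.0% (difference −1.76 points, −5 to 1.72), and those called in replicate 2 alone in 17.7% (difference 7.46 points, 4.26 to 10.9).

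**Figure D3:**
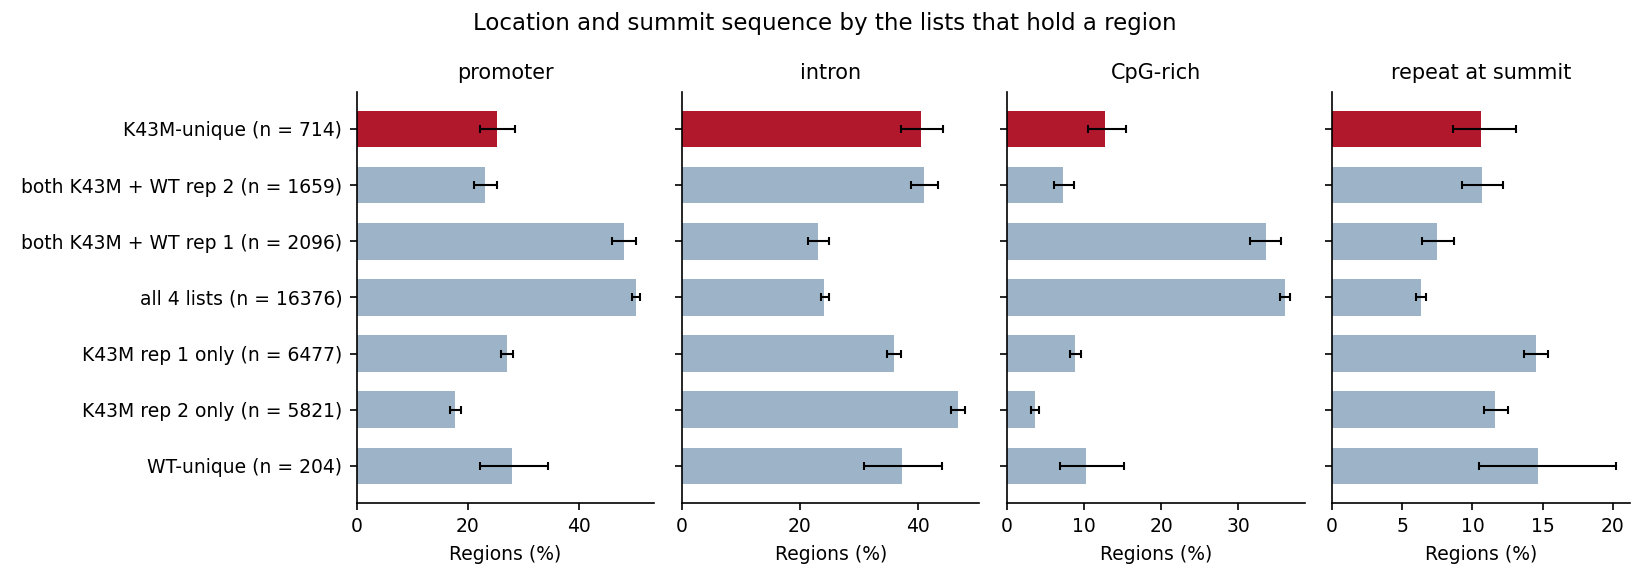
Share of regions (x axis, %) at promoters, in introns, with a CpG-rich summit and with a summit in a repeat, for the CDK6-K43M-unique regions (red) and for regions held by other combinations of the 4 lists (blue), with 95% Wilson intervals. The unique regions lie beside the regions that add CDK6-WT replicate 2 (25.2% and 23.1% at promoters) and apart from those that add CDK6-WT replicate 1 (48.0%).

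Many members lay next to a CDK6-WT peak. The gap to the nearest CDK6-WT peak had a median of 1555 bp. It was at most 500 bp for 248 members (34.7%), at most 1000 bp for 316 (44.3%, Wilson interval 40.7 to 47.9) and at most 10 kb for 543 (76.1%). Of the 316, 220 had peaks of both CDK6-WT lists within 1000 bp. The share within 1000 bp was 49.5% for regions unique to CDK6-WT, measured to CDK6-K43M peaks. Measured to CDK6-WT peaks, it was 33.4% for regions called in CDK6-K43M replicate 1 alone. For those called in replicate 2 alone it was 44.3%, the same as for the members. The 171 members (23.9%) over 10 kb from any CDK6-WT peak were compared with the 316 close ones. Close members were at promoters in 33.5% and far ones in 19.9%, a difference of 13.7 points (5.38 to 21.2), and CpG-rich in 20.9% and 8.77%, a difference of 12.1 points (5.48 to 18). Regions in the CDK6-WT lists were themselves at promoters in 44.9% and 37.9% and CpG-rich in 29.6% and 23.6%. No other class was split by this gap, so whether these differences are particular to members was not tested. The median percentile in CDK6-K43M replicate 1 was 18.6 for close members, 25 for those between 1000 bp and 10 kb and 28.5 for far ones, and in replicate 2 it was 26.4 in all 3 sets. Members themselves were scattered, with a median of 675 kb to the next member and 39 members within 10 kb of another. A member was narrow, with a median width of 288 bp against 631 bp for regions bound by both, and the summits of its CDK6-K43M peaks lay a median of 51 bp apart against 45 bp.

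**Figure D4:**
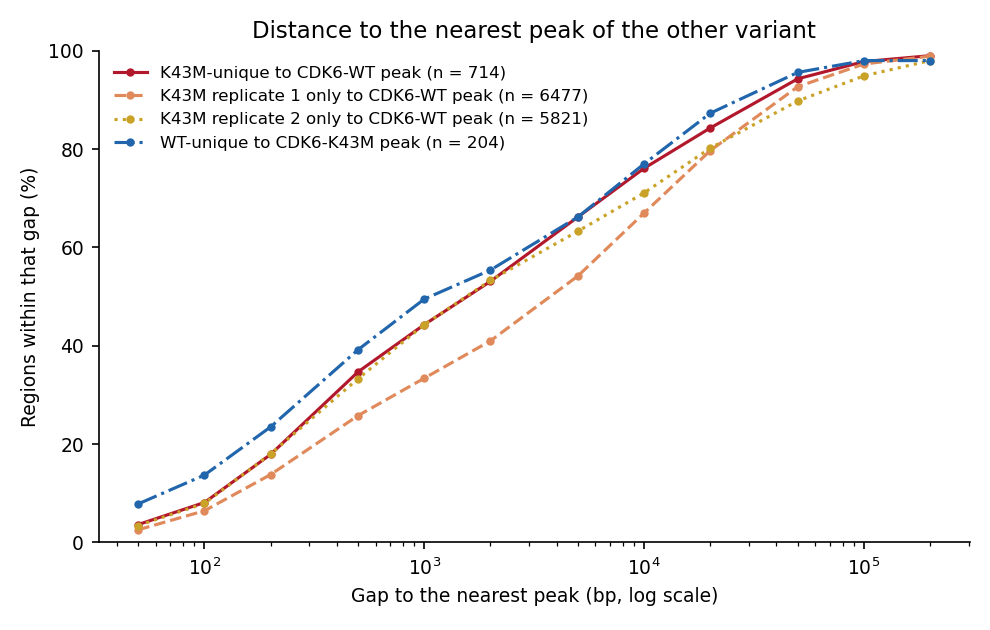
Share of regions (y axis, %) with a peak of the other variant within a given gap (x axis, bp, log scale), for CDK6-K43M-unique regions, regions called in a single CDK6-K43M list and regions unique to CDK6-WT. Of the CDK6-K43M-unique regions, 44.3% had a CDK6-WT peak within 1000 bp and 76.1% within 10 kb.

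Members were spread over all chromosomes. Among regions called in both CDK6-K43M libraries, the share that were members ran from 2.30% on chromosome 7 to 4.41% on chromosome 13 among the autosomes, and was 7.73% on the X chromosome (18 of 233, 4.94 to 11.9). The X chromosome exceeded the autosomes together (3.38%) by 4.35 points (1.55 to 8.51). Without CDK6-K43M replicate 2 this difference was 1.12 points (−2.09 to 4.74), and without CDK6-K43M replicate 1, CDK6-WT replicate 1 and CDK6-WT replicate 2 it was 7.86, 10.6 and 14.8 points. The list of CDK6-K43M replicate 1 held 1.22 times as many X-chromosome peaks as that of CDK6-WT replicate 1 and the list of CDK6-K43M replicate 2 held 1.05 times as many as that of CDK6-WT replicate 2. The part of these list lengths in the difference was not tested. The X chromosome held 2.52% of members and 5 of the 204 regions unique to CDK6-WT. Whether the X-chromosome excess is particular to CDK6-K43M was not tested.

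Sequence motifs of 13 transcription factor families were then counted in the 201 bases around each summit, on both strands. Several of these factors are known in B-lineage cells, among them EBF, E2A, RUNX, PU.1 and IRF proteins, and others, SP1, NRF-1, NFY, CRE-binding and GABP-type ETS proteins, are known at CpG-rich promoters. None of the 13 was found in 340 members (47.6%) and in 31.3% of regions bound by both. The letters can overlap between families, as in the GC-rich promoter motifs and the GGAA core that both ETS patterns share, and a match is not a binding site.

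The promoter-type motifs were rarer at members than in regions bound by both. The SP1 motif GGGCGGG was in 4.48% of members, 16.2% of regions bound by both and 9.76% of all regions, with a difference of −11.8 points (−13.1 to −9.91). The ETS motif CCGGAAG was in 1.40%, 9.07% and 5.07% (difference −7.67 points, −8.41 to −6.45), a level equal to the 1.40% in windows 1000 bp to either side of the members. In those flanking windows the SP1, NRF-1, NFY and CRE motifs were in 4.41%, 0.350%, 4.76% and 0.0700%. The NRF-1 motif GCATGCGC was in 7 members (0.980%), 2.53% of regions bound by both and 1.37% of all (difference −1.55 points, −2.10 to −0.505). The NFY motif CCAATNNG was in 4.34%, 6.99% and 5.85% (difference −2.64 points, −3.96 to −0.860), and the CRE motif TGACGTCA in 1 member (0.140%), 1.45% and 0.841% (difference −1.31 points, −1.51 to −0.648). Against regions that added CDK6-WT replicate 2 only, the differences for these motifs were small. They were 1.59 points for SP1 (0.00343 to 3.5), 0.0745 points for ETS (−0.853 to 1.32) 0.558 points for NRF-1 (−0.115 to 1.61), −0.300 points for NFY (−1.99 to 1.68) and 0.0798 points for CRE (−0.223 to 0.731). Against regions that added CDK6-WT replicate 1 only, they were −14.7 points for SP1 (−16.9 to −12.3), −7.57 points for ETS (−9.02 to −5.94), −1.07 points for NRF-1 (−1.93 to 0.0843), −3.53 points for NFY (−5.30 to −1.47) and −1.67 points for CRE (−2.35 to −0.860). Without CDK6-WT replicate 1, the SP1 difference turned to 2.98 points (1.65 to 4.4), the NFY difference to 0.880 points (−0.0451 to 1.91) and the CRE difference to 0.324 points (−0.0670 to 0.836), while the ETS difference was −0.437 points (−1.35 to 0.579) and the NRF-1 difference −0.211 points (−0.672 to 0.368).

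Motifs of B-lineage factors showed a mixed picture. The EBF motif CCCNNGGGA, the palindrome-like site of a factor that specifies B cells, was in 6.86% of members, 11.2% of regions bound by both and 9.11% of all regions, a difference of −4.29 points (−5.97 to −2.16). Outside promoters it was in 6.37% against 13.9%, a difference of −7.53 points (−9.42 to −5.06), and among weak peaks outside promoters the difference was −6.10 points (−8.27 to −3.38). Members had less of it than regions that added CDK6-WT replicate 1 only (difference −3.87 points, −6.02 to −1.43), while the difference from those that added CDK6-WT replicate 2 only did not exclude 0 (−1.70 points, −3.88 to 0.744). It was more frequent in regions unique to CDK6-WT, at 12.7%, from which members differed by −5.88 points (−11.4 to −1.46). Without CDK6-WT replicate 1 the difference from regions bound by both was −0.0422 points (−1.15 to 1.16). In the members' flanking windows the EBF motif was in 3.64%. The RUNX motif TGTGGTT or TGCGGTT was in 10.1% of members, 11.2% of regions bound by both and 10.4% of all regions (difference −1.09 points, −3.13 to 1.37). Outside promoters it was in 10.9% of members against 15.5% (difference −4.60 points, −7.05 to −1.61), but among weak peaks outside promoters the difference was −2.17 points (−4.87 to 1.04), which did not exclude 0. Its direction also depended on the CDK6-WT library. Members had less of it than regions that added CDK6-WT replicate 2 only, 15.8% (difference −5.71 points, −8.42 to −2.76), and more of it than regions that added CDK6-WT replicate 1 only, 7.35% (difference 2.74 points, 0.406 to 5.38). In windows 1000 bp to either side of the members it was in 4.97%.

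The E-box CAGCTG, as bound by E2A, was in 17.6% of members and 9.31% of their flanking windows, and in 19.6% of regions bound by both (difference −1.99 points, −4.67 to 1.02) and 18.1% of all regions. Outside promoters the difference was −5.45 points (−8.65 to −1.82), and among weak peaks there it was −0.542 points (−4.07 to 3.39). Against regions that added CDK6-WT replicate 2 only it was −4.11 points (−7.44 to −0.579), and against those that added CDK6-WT replicate 1 only 0.0421 points (−3.08 to 3.40). The PU.1-type motif GAGGAAGT was in 5.88% of members, 1.05% of flanking windows, 6.35% of regions bound by both (difference −0.464 points, −2.00 to 1.53) and 5.56% of all. The PU.1-type difference was −2.38 points outside promoters (−4.20 to 0.0453), 0.921 points against regions that added CDK6-WT replicate 1 only (−0.892 to 3.07) and −1.95 points against those that added CDK6-WT replicate 2 only (−4 to 0.355). Regions unique to CDK6-WT held it in 10.3% (difference −4.41 points, −9.57 to −0.427). The IRF motif GAAANNGAA was the only family above regions bound by both with an interval that excluded 0, at 8.54% against 6.59% (difference 1.95 points, 0.0890 to 4.25) and 7.23% of all regions. Within promoters the difference was 4.61 points (1.13 to 9.79), while outside promoters it was 0.0344 points (−2.07 to 2.72). It was 3.58 points against regions that added CDK6-WT replicate 1 only (1.48 to 6.01) and −0.0160 points against those that added CDK6-WT replicate 2 only (−2.35 to 2.58). Without CDK6-WT replicate 1 it turned to −1.65 points (−2.51 to −0.692), and without CDK6-K43M replicate 2 it was 0.114 points (−0.497 to 0.761). In the members' flanking windows the IRF motif was in 4.97%. Over all regions, the intervals of the remaining 3 motifs against regions bound by both included 0. AP-1 (TGANTCA) was in 6.02% of members and 7.18% of all regions, CTCF (CAGGGGGC) in 1.82% and 3.06%, and the motif of GATA factors, spelled AGATAAG, in 1.40% and 1.69%. In the members' flanking windows AP-1, CTCF and GATA motifs were in 5.18%, 0.840% and 2.59%. Members had less of the AP-1 motif outside promoters, 6.74% against 9.85% (difference −3.11 points, −5.02 to −0.603), but among weak peaks there the difference was −1.91 points (−4.05 to 0.799). The AP-1 difference was −2.78 points against regions that added CDK6-WT replicate 2 only (−4.89 to −0.416) and −0.418 points against those that added CDK6-WT replicate 1 only (−2.31 to 1.8). Members had less of the CTCF motif than regions that added CDK6-WT replicate 1 only (difference −3.24 points, −4.51 to −1.70). Against those that added CDK6-WT replicate 2 only, the CTCF difference was 0.736 points (−0.242 to 2.07), which included 0. Against regions unique to CDK6-WT it was −3.08 points (−7.04 to −0.526). EBF, PU.1-type and CTCF were the only families whose interval against regions unique to CDK6-WT excluded 0. The SP1 motif was in 4.48% of members and 4.41% of regions unique to CDK6-WT (difference 0.0700 points, −3.90 to 2.80).

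**Figure D5:**
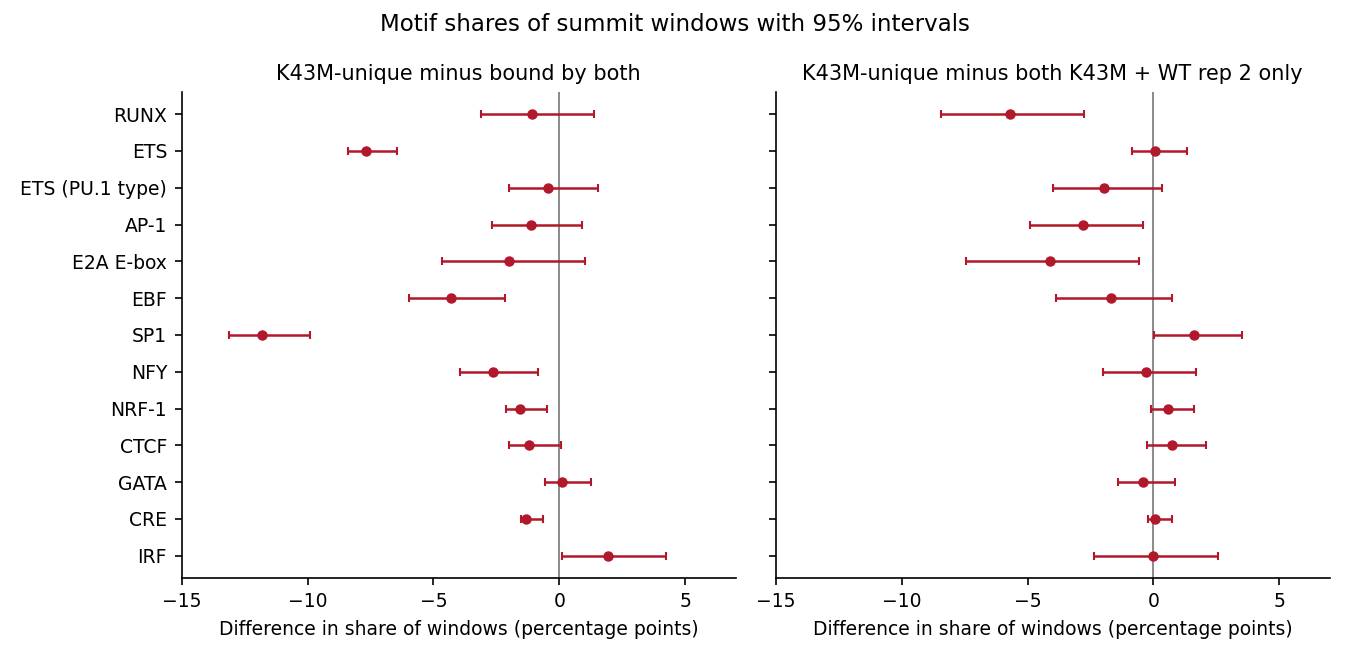
Difference in the share of 201-base summit windows that hold a motif (x axis, percentage points) for 13 motif families, as CDK6-K43M-unique regions minus regions bound by both (left) and minus regions with both CDK6-K43M peaks and CDK6-WT replicate 2 only (right), with 95% Newcombe intervals. The SP1 and ETS differences on the left (−11.8 and −7.67 points) are near 0 on the right, whereas RUNX, the E-box and AP-1 lie below 0 on the right (−5.71, −4.11 and −2.78 points).

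Genes were assigned by promoter overlap and by the nearest protein-coding start, neither of which shows that a region acts on the gene. Among the 10 members with the highest mean percentile, 3 lay at promoters, 3 in exons, 2 in introns and 2 in intergenic DNA. The first, in an intron of the zinc finger gene Zfp664, was even across the lists, at percentiles 74.4 and 73.9 with 33 and 20 reads. The second, 114 bp inside Ephx1, which encodes microsomal epoxide hydrolase, was at 77.7 and 64.0, with a CDK6-WT replicate 1 peak 280 bp away. The third, in an intron of Spred2, an inhibitor of RAS signalling to ERK, was at 58.1 and 81.3, with the nearest CDK6-WT peak 4906 bp away. Exonic members followed in Atg12, a ubiquitin-like gene of autophagy, in Ccdc181 and in Stum. The seventh lay in the promoter window of the microRNA gene Mir7020 within Aldh4a1. The ninth lay 533 bp inside Acadm, which encodes the medium-chain acyl-CoA dehydrogenase of fatty acid oxidation, with 20 and 19 reads and CDK6-WT peaks 183 and 257 bp away. The tenth, an intergenic region with Abra as nearest gene, was among the most isolated, with 230717 bp to the nearest CDK6-WT peak.

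A member in an intron of Atg10, another autophagy gene, had the highest read count of all, 56 in CDK6-K43M replicate 1 (percentile 88.7), and 13 in replicate 2 (percentile 32.5). The opposite pattern was seen in an intron of Elf5, an ETS factor, with 20 reads at percentile 42.0 and 21 at percentile 77.0. Among other high-ranked members were introns of Src, exons of Ip6k2 and Stx3, and intergenic regions nearest to Chd1l, Chrm3, Nkx1-1 and 2610318N02Rik. The share of members with a mean percentile of at least 50 was 16.7% for exons (10 of 60), 7.78% for promoters, 6.52% for intergenic regions and 4.14% for introns.

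Promoters of protein-coding transcripts were overlapped by 119 members, which touched 125 genes, and another 61 members lay at promoters of other transcripts only. Of the 125 genes, 87 (69.6%) also had a region bound by both in a promoter, and 31 had no CDK6-WT peak in any of their promoters. The same shares over all protein-coding genes are not given here, so these counts cannot be read as high or low. The highest-ranked of the 31 was Btg2, an anti-proliferative gene known as a p53 target, where a CpG-rich summit 29 bp downstream of a start had 26 and 15 reads at percentiles 62.2 and 58.4. A CDK6-WT replicate 1 peak lay 652 bp from it and outside its promoter windows. Iqgap2, a scaffold protein of the cytoskeleton, followed with 21 and 14 reads at percentiles 55.2 and 52.0 and no CDK6-WT peak within 205913 bp. Cdc42bpg, a kinase downstream of CDC42, had 26 and 14 reads, at percentiles 63.8 and 40.3. Pcp4 and Ei24 came next among the 31, with mean percentiles of 45.7 and 44.6. Lower in that order, and named as a selection, were the immune genes Il15ra, Nlrp1a and Tlr2, with mean percentiles of 39.0, 36.4 and 31.8. Il15ra encodes the specific receptor chain for IL-15, Nlrp1a an inflammasome sensor and Tlr2 a receptor for bacterial lipoproteins. No share of immune genes among all genes is given here. Spin1, a reader of histone methylation, was among the 31 with 2 members in its promoters. Among the highest-ranked promoter genes that did hold a CDK6-WT peak elsewhere in a promoter were Rd3l, Tpm1, Larp1b, Tada2b, Mon1b and Stard6, with CDK6-WT peaks 172 to 803 bp from the member.

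Of the 350 members in exons and introns, 320 lay inside a protein-coding gene. Over all 714 members, 677 protein-coding genes had the nearest start, and 35 of them were nearest to at least 2 members. Cmip and Kat2b had 3 members each. Those at Kat2b, which encodes the histone acetyltransferase PCAF, lay 455, 854 and 2965 bp downstream of a start with mean percentiles of 40.3, 4.73 and 39.1, all within 181 bp of a CDK6-WT peak. Those at Cmip lay 642, 1103 and 37171 bp downstream of a start with mean percentiles of 14.3, 7.41 and 43.5. Genes with 2 members included Bcor, a transcriptional corepressor encoded on the X chromosome, Runx2, Runx3 and Mef2c, which encode transcription factors of blood and bone, and the signalling genes Rgs2, Irs2, Tab2 and Il12a.

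The 9 gene lists, on pathways of this leukaemia and of CDK6, hold 306 annotated genes, and 27 members (3.78%) were nearest to a listed gene against 4.24% of regions bound by both. Because the lists were set with earlier results of these data known, they describe where members fall and test nothing. The 22973 regions bound by both covered a promoter of 258 of the 306 genes. The far fewer members covered a promoter of 5, which were Ndufa10, Runx3, Dusp2, Grb2 and Hras.

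The RAS-MAPK feedback list held 7 of the 27, 0.980% of members against 0.483% of regions bound by both. Dusp2, a nuclear phosphatase of MAP kinases, had a promoter member with 28 and 14 reads at percentiles 53.4 and 40.3, 48 bp from a CDK6-WT peak. Grb2, the adaptor that links receptors to RAS activation, had a promoter member with 23 and 13 reads at percentiles 37.5 and 32.5, 41 bp from a CDK6-WT peak. The member at Hras and Lrrc56, whose starts share that promoter, was among the 3 weakest of all, at percentiles 1.63 and 0.461 with 22 and 8 reads. The phosphatase genes Dusp4, Dusp5 and Dusp6 each had a member nearest to their start, at mean percentiles of 14.6, 14.3 and 8.26. The member of Spred2 described above was the strongest of the list. Rasa1, a GTPase-activating protein for RAS, was the nearest gene at 350651 bp.

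B-lineage transcription factors took 12 members, 1.68% of members against 1.27% of regions bound by both. The member nearest to Tcf4, an E protein, lay in its intron at percentiles 55.2 and 33.0. The member over the start of Runx3 was CpG-rich and weak, at percentiles 8.72 and 16.2, and another lay 7318 bp downstream of a start at percentiles 47.0 and 26.4. Both members nearest to Runx2 lay in introns of the neighbouring gene Supt3, with no CDK6-WT peak within 304635 bp. The members nearest to Ebf1, Bach2 and Lef1 were intergenic, with CDK6-WT peaks 105, 199 and 178 bp away. Those at Mef2c had mean percentiles of 25 and 19.2, that at Erg 25.2, and that nearest to Id2, an inhibitor of E proteins, 16.6.

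The other 7 lists held 0 to 2 members each, and in all 7 the share of members nearest to a listed gene was below that of regions bound by both. The shares were 0.280% against 0.357% for oxidative phosphorylation, 0.280% against 0.431% for the cell cycle, 0.140% against 0.174% for glycolysis and 0.140% against 0.300% for apoptosis. They were 0.140% against 0.374% for JAK-STAT, 0.140% against 0.522% for pre-B receptor and surface genes, and 0% against 0.366% for AP-1 and EGR. Of the 74 oxidative phosphorylation genes, 2 had the nearest start to a member and 1 had a member in a promoter, while 65 had a promoter region bound by both. The member at Ndufa10, a subunit of complex I, had 13 and 11 reads at percentiles 12.5 and 26.4, 75 bp from a CDK6-WT peak, and that nearest to Ndufb4, also of complex I, lay 30377 bp upstream with 29 and 12 reads. The cell cycle list held a member nearest to Cdkn1a, which encodes the CDK inhibitor p21, in a repeat within the non-coding gene Trp53cor1, at percentiles 54.1 and 7.80. It also held a member 943 bp inside Cdkn2a, which encodes INK4A and ARF, at percentiles 7.02 and 50.3. The glycolysis list held a member nearest to the phosphofructokinase gene Pfkp, and the apoptosis list a member nearest to Bcl2l11, which encodes BIM, at mean percentiles of 32.6 and 31.2. The JAK-STAT list held a member 762 bp inside Socs2, a feedback inhibitor of cytokine signalling, at 45.3, and the list of pre-B receptor and surface genes a member in an intron of the kinase gene Blk, at 6.90. The AP-1 and EGR list held 0.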

How the data were processed

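Anti-HA ChIP-seq was analysed in 4 libraries, 2 of HA-CDK6-WT and 2 of HA-CDK6-K43M, grouped by title. Per the labels and the study's methods, reads were trimmed (Trimmomatic 0.36), mapped by the authors to mm10 (BWA 0.7.15), filtered (SAMtools 1.3.1, bedtools) and used to call peaks per library with MACS2 2.1.0. The deposited lists give a fold enrichment (a ratio over local background), the −log10 of the p-value and q-value at the summit, a score (10 times that −log10 q, cut to an integer) and, as other information, where the summit lies. They hold 34729 to 39797 peaks and start at a −log10 q of 1.31 to 1.34. Library totals are not in the lists, so absolute depth is unknown.

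Peaks sharing at least 1 bp were merged in place of the authors' DiffBind step, and the summit of a region was that of its peak with the highest −log10 q. Summit reads were solved from the deposited fold enrichment and −log10 p by the MACS2 formula (pseudocount of 1), and a whole number within 0.001 was found for 100% of peaks. These steps and the intervals were tested on simulated data. Locations used GENCODE M21 (the authors used M13) and sequences the RefSeq GRCm38 genome, read with pysam 0.24.0 under Python 3.11.15, with pandas 2.3.3, numpy 2.4.6 and scipy 1.17.1 for the rest. Intervals cover counting error only, and no p-values were computed.

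Members and gene lists were chosen with earlier results of these data known. Regions were named by rule: the 10 members with the highest mean percentile, the 10 highest at protein-coding promoters, the 5 highest each in exons, introns and intergenic DNA, the 3 lowest, those at a listed gene, and genes nearest to at least 2 members. Genes named as lacking a CDK6-WT promoter peak were picked after their values were seen.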

Additional observations from a re-analysis of the deposited data

How the results depend on the processing

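The lists give summit reads but no library totals, and CDK6-WT reads are known only where a peak was called, so weak CDK6-WT signal at a member was not detectable here. With a minimum −log10 q of 10 in all lists the number of members was 206, with a minimum of 5 in the CDK6-K43M lists only it was 149, and with the top 10000 peaks of each list it was 134. The other 5 settings that kept all libraries stayed within 1.5 times of 714, from 480 with peaks within 500 bp merged to 1003 with summits extended by 100 bp. Leaving out 1 library, which loosens the rule, gave 2451 to 7332.

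The promoter difference kept its direction under all alternatives but 1, with a range over the libraries left out of −22.4 to 2.03 points, and the CpG-rich difference likewise, with −22.5 to 2.86. Both turned without CDK6-WT replicate 1, and the cause was not tested. The intergenic difference ranged from 0.815 to 6.85 points over the libraries left out, was 0.737 against regions with 1 CDK6-WT peak and 1.83 among weak peaks. The repeat difference ranged from 0.785 to 5.95 points, was 1.78 against regions with 1 CDK6-WT peak and turned to −0.714 points (−3.57 to 4.34) with a minimum −log10 q of 5 in the CDK6-K43M lists only. The share of members within 1000 bp of a CDK6-WT peak was 32.7% with a minimum −log10 q of 5 in all lists, 40% with lists of equal length and 30.3% to 46.2% over the libraries left out. It was 34.7% at 500 bp and 66.2% at 5000 bp.

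Motif and X-chromosome differences were recomputed without each library as a step chosen after seeing the data. The ranges were −12.4 to 2.98 points for SP1, −2.62 to 0.88 for NFY, −1.34 to 0.324 for CRE and −1.65 to 2.18 for IRF. No paired analysis was possible because the results come from no test over libraries to which a replicate block could be added. The differences within replicate numbers 1 and 2 were −21.1 and −13.6 points for promoters and −23.2 and −13.5 points for CpG-rich summits. They cover all regions of a CDK6-K43M list with and without a CDK6-WT peak of that number, so they do not replace a paired analysis of the members.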
